A study of Mus musculus with 2 samples.

Results

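The replication-dependent histone genes supply the core histones H2A, H2B, H3 and H4 and the linker histone H1 that package newly made DNA. Members were all rows of the deposited gene table whose symbol starts with Hist1h, Hist2h, Hist3h or Hist4h and that had at least 10 UMIs (unique molecular identifiers, each standing for 1 captured RNA molecule) over both libraries. This gave 65 members among 27998 rows, of which 5 code for H1, 19 for H2A, 16 for H2B, 12 for H3 and 13 for H4. The 4 other rows with the prefix, Hist1h1t, Hist1h2ba, Hist1h2bq and Hist1h2br, had 0 UMIs, and the members just inside the limit were Hist1h2aa and Hist2h2aa2 with 11 each. The symbol Hist2h2bb stands on 2 rows with different Ensembl identifiers, which were kept apart.

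The cells were sorted as YFP-positive and CD11b-negative from hindlimb muscle of Fsp1-Cre:R26R-EYFP mice. There the Fsp1 (S100a4) promoter drives Cre, which turns on YFP for good in any cell that has used that promoter, and in its descendants. The day 0 library came from mice without surgery and the day 28 library from mice 28 days after hindlimb ischemia surgery. Each group had 1 library, so no difference below has a replicate check, no p-value is given, and day, surgery and library preparation cannot be told apart. The labels do not say how many animals were pooled.

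After filtering, 2609 cells at day 0 and 2580 at day 28 remained, with medians of 4788 and 12229.5 UMIs per cell, and 13 barcodes occurred in both libraries. The markers were mostly those of blood cells, not of the fibroblasts that Fsp1 is often used to label: Ptprc, the pan-leukocyte gene CD45, was detected in 67.2% of day 0 cells and 56.4% of day 28 cells, and Itgam, which codes for CD11b, in 3.99% and 11.6%. Of 3 fibroblast genes, the collagen gene Col1a1 was detected in 0.537% and 0.581%, Pdgfra in 0.23% and 0.194%, and Dcn in 0.652% and 2.44%; the 63 day 28 cells with a Dcn UMI include all 4 fibroblast-like cells of that library, and free RNA among the others was not tested. These detection shares were not adjusted for depth and do not measure change between the libraries. The 22 clusters were blood-cell classes apart from 12 and 4 fibroblast-like cells, and 3 clusters, holding 428 and 347 cells, stayed unnamed. Class names end in "-like" because they rest on marker genes alone. T or NK-like cells made up 32.0% of day 0 and 3.64% of day 28 cells, and monocyte progenitor-like cells 3.64% and 15.5%, so values over all cells also carry the change in mixture and values within classes are given beside them. The monocyte progenitor-like cells are cluster 2, whose 10 leading genes include 5 of the monocyte progenitor list and 5 of the neutrophil progenitor list, Prtn3, Ctsg and Mpo being on both. It differed from the neutrophil progenitor-like cluster 4 in the monocyte-lineage factor Irf8 (479.7 and 39.9 CPM over both libraries) and in the granulocyte factor Cebpe (14.9 and 201). CPM is a gene's UMIs over all UMIs of the same cells on the counts-per-million scale. The granule genes that lead cluster 2 do not tell the 2 names apart. Of the markers first named, Itgam stood at 6.7 CPM at day 0 and 9.5 at day 28, and Ptprc at 194.5 and 73.1. Dcn stood at 33.4 and 11.5, Col1a1 at 4.64 and 2.87 and Pdgfra at 0.58 and 0.161. Dcn and Col1a1 were thus lower in CPM at day 28, although their detection shares were higher.

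Transcripts of these genes accumulate in S phase, when DNA is copied, and most end in a short stem-loop bound by the protein SLBP in place of a poly(A) tail. Some members also give polyadenylated forms, which are known from differentiated cells that no longer divide. The libraries were primed on poly(A) RNA and read near transcript 3' ends, so a member's UMIs count only what that priming caught, and levels are compared here between cells for a member, not between members. A member's share of its class is likewise a share of captured UMIs, read only between cells or libraries. Mcm2 to Mcm7 code for the helicase loaded onto replication origins, and Mki67 codes for a protein of cycling cells that is abundant in G2 and M phase.

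The 3' ends of the transcripts show the feature that defines the family. In the 61 members with an annotated coding transcript (GENCODE M21 on GRCm38), the stem-loop was found as a 16-base run in 40, starting 21 to 58 bases after the stop codon. It took 6 forms, printed with the 2 paired arms in capitals and the loop in lower case, each with the number of members and the histone classes that carry it:
23 members (H1, H2A, H2B, H3): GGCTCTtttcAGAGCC
7 members (H4): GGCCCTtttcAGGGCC
5 members (H2B, H3): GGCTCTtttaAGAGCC
2 members (H4): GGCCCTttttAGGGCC
2 members (H4): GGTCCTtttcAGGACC
1 member (H2A): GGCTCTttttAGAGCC
The H4 members carried 3 forms that occurred in no other class among these 40, whereas the most frequent form was shared by H1, H2A, H2B and H3 members. In 14 of the 61 the annotated transcript ends within 2 bases of the stop codon and so holds no stem-loop, as for Hist1h1b.

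How alike members are differs by class, and bears on the single-gene values below. All 13 H4 members encode 1 protein. Of 18 H2A members with a coding sequence, 9 encode the same protein, as do 7 of 12 H3 members and 4 of 13 H2B members. The 5 H1 members encode 5 proteins, with 64.8 to 86.9% identity between pairs. H3 pairs stood at 99.26% or 100%, apart from pairs with Hist2h3c1, at 74.59% or 75.14%. The Hist2h3c1 transcript used here codes for 181 residues, against 136 for the other H3 members, and identity was taken over the whole alignment. For the last 300 bases of the transcript, where 3' reads fall, 31 members had at least 50% of their 50-base words present in another annotated transcript, 12 had at least 90% and 16 had none. Words can be shared between copies or between annotated genes that overlap, as for Hist1h1e and Hist1h2be. Reads from such stretches can be split, lost or assigned to either gene by the authors' counting.

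The 300-base promoter windows in RefSeq (GRCm38.p6, 250 bases before to 50 after the start) could be matched for 56 members. The word CCAAT, searched on both strands, was present in all windows of the 5 H1, 18 H2A, 11 H2B and 10 H3 members and in 3 of 12 windows of H4 members, against 37.4% of all 32851 promoters in the table. TATAAA was present in 60.7% of member windows against 13.6% of all. ATTTGCAT, the octamer word, was present in 7 of 18 H2A and 4 of 11 H2B windows and in none of the other classes, against 1.74% of all. AAACACA was present in 4 of 5 H1 windows, against 7.18% of all. The 180 bases before the start are printed for the 5 members whose patterns are described most fully below, with these words in capitals:
Hist1h1b (chr13:21780626-21780805, minus strand): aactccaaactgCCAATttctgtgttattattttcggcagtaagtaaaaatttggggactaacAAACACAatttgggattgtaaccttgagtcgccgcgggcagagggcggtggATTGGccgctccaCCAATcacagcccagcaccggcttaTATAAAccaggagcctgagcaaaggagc
Hist1h1c (chr13:23738627-23738806, plus strand): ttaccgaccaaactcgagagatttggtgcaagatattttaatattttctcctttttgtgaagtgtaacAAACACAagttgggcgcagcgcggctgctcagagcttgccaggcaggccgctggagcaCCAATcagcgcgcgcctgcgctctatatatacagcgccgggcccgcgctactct
Hist1h2ap (chr13:21833476-21833655, minus strand): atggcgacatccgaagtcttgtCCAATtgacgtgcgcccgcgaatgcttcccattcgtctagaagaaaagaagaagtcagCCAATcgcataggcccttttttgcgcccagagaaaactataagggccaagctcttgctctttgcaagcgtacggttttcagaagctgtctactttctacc
Hist1h2ao (chr13:21810187-21810366, plus strand): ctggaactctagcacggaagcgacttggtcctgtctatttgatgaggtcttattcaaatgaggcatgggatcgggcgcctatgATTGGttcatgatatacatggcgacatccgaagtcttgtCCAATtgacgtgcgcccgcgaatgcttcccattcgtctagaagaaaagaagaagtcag
Hist3h2a (chr11:58954505-58954684, plus strand): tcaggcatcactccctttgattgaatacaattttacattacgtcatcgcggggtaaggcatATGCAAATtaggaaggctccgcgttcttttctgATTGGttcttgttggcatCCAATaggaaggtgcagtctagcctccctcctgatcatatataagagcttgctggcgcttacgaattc
Hist1h2ap and Hist1h2ao share an unbroken 200-base run in their windows. The starts are those of RefSeq, and for these 2 copies they differ from the GENCODE transcripts. The printed Hist1h2ap stretch reaches into its GENCODE transcript (21833026 to 21833507), while that of Hist1h2ao ends before its transcript begins at 21810465. The 2 stretches are thus cut at different places, and their printed words cannot be compared by position. No factor binding was measured, and a word match is a description of the letters only.

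Levels below are in CPM. Summed over all members, histone transcripts stood at 611.7 CPM at day 0 (11601 UMIs, 95% interval 600.7 to 623) and at 533.7 at day 28 (19905 UMIs, 526.3 to 541.2). Intervals are exact Poisson intervals for a sum and conditional binomial intervals for a ratio, and cover counting error only. This fall hid opposite movements: H2A fell from 303.7 to 123.8 CPM, while H1 went from 104.8 to 128.5, H2B from 99.7 to 137.1, H3 from 22.8 to 49.8 and H4 from 80.7 to 94.5. A single H2A gene, Hist1h2ap, accounted for the H2A difference: without it the H2A members stood at 87.6 and 112.9, and the 64 other members together at 395.6 and 522.9 (ratio 1.32, 1.29 to 1.36). Over the same cells Mcm2 to Mcm7 summed to 581.6 and 554.2, and Mki67 stood at 69.9 and 93.4 CPM.

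Hist1h2ap (chromosome 13, 21833026 to 21833507, minus strand, GRCm38, 1 exon, with 57 annotated bases after the stop codon) had 4099 UMIs, or 216.1 CPM (209.6 to 222.9), at day 0 and 404 UMIs, or 10.8 CPM (9.80 to 11.9), at day 28. It was 19.95-fold lower at day 28 (18.0 to 22.2). It held 35.3% of all captured member UMIs at day 0 and 2.03% at day 28. All of the 50-base and 90-base words in its last 300 bases are also found in other transcripts, first among them Hist1h2ao (chromosome 13, 21810465 to 21810944, plus strand), with which it shares an unbroken run of 452 bases. Hist1h2ao had 7 UMIs at day 0 and 88 at day 28. The pair together went from 216.5 to 13.2 CPM, 16.4-fold lower (14.9 to 18.1). Of 5807 genes at 5 CPM or more in each of 8 classes, 4 were at least 4-fold lower at day 28 in every class, namely Gm10709, Gstp1, Gm10076 and Gm10020, chosen after their values were seen, and 1, AY036118, was at least 4-fold higher in every class. The last 300 bases of the 4 lower genes share 91.2%, 100%, 62.9% and 100% of 50-base words with other transcripts. The gene tables of both libraries list the same 27998 rows, but the sources used here do not say whether both were counted with the same annotation and settings. Whether counting differed between the libraries, or read assignment among copies moves with Hist1h2ap, was not tested, and the ratio compares counts as deposited.

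**Figure D1:**
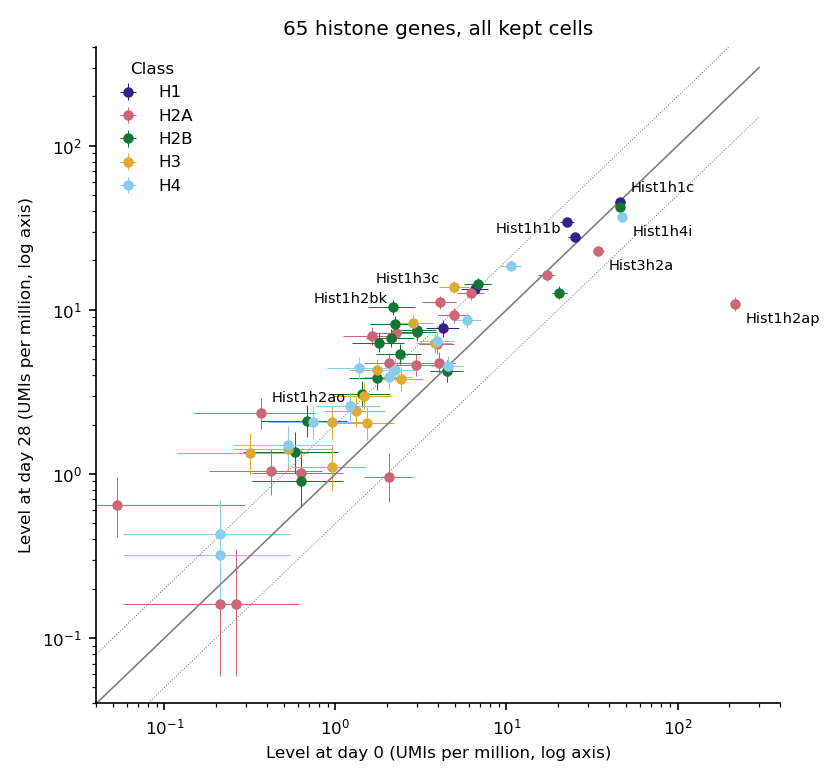
Level of each of the 65 members over all kept cells at day 0 (x axis) and day 28 (y axis), in CPM on log axes, coloured by histone class. Bars are 95% Poisson intervals, clipped at the axis, the solid line marks equal levels and the dotted lines a ratio of 2 either way. Hist1h2ap stands alone at 216.1 and 10.8. At least 2-fold higher at day 28 were 33 of 65 members, against 603 of 13988 genes with at least 10 UMIs. At least 2-fold lower were 2 members, against 1694 of these genes. These counts over all cells also carry the change in cell mixture.

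The same difference was present inside the cell classes. In monocyte or macrophage-like cells (222 and 452 cells) Hist1h2ap stood at 238.8 and 10.8 CPM, 22.2-fold lower at day 28 (interval 17.1 to 29.2). In early B-like cells (189 and 238 cells), precursors that rearrange their antibody genes, it stood at 615.6 and 20.3, 30.3-fold lower (22.6 to 41.4). In erythroid-like cells (102 and 125 cells) it stood at 691.1 and 16.4, 42.2-fold lower (30.3 to 60.4). It was lower by 29.3-fold in monocyte progenitor-like cells, 29.4-fold in neutrophil progenitor-like cells and 9.21-fold in plasmacytoid dendritic cell-like (pDC-like) cells. The pDC-like value mixes 2 clusters held in different shares by the libraries: Hist1h2ap was 5.35-fold lower (1.79 to 21.5) in cluster 7, from 20 and 4 UMIs, and 14.1-fold lower (9.62 to 21.4) in cluster 11. Clustering at a lower resolution gave 5.35-fold for the class. In T or NK-like cells it had 60 UMIs at day 0 and 4 at day 28, and the interval of the ratio reached 1 (0.372, 0.0982 to 1.0). Mki67 within the monocyte or macrophage-like, early B-like and erythroid-like classes differed little (108.1 and 114.6, 187.8 and 185.0, 273.1 and 294.0 CPM), so the fall of Hist1h2ap was not matched by a fall of this marker there. Mcm2 to Mcm7 did fall in the same classes, from 776.7 to 582.2, from 1083 to 650.6 and from 1562 to 1214 CPM, by far less than Hist1h2ap.

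The sum of the other 64 members went the other way, or had a ratio whose interval includes 1, in these classes. It stood at 433.9 and 505.9 CPM in monocyte or macrophage-like cells (ratio 1.17, 1.09 to 1.25), at 308.7 and 428.9 in monocyte progenitor-like cells (1.39, 1.28 to 1.51) and at 317.6 and 342.1 in neutrophil progenitor-like cells (1.08, 0.973 to 1.20). In early B-like cells it stood at 1158 and 1228 (1.06, 0.996 to 1.13) and in erythroid-like cells at 854.5 and 902.9 (1.06, 0.978 to 1.14), where the ratio was 0.961 with doublets kept. Different clusters held most of the early B-like class in the 2 libraries, cluster 8 at day 0 (127 of 189 cells) and cluster 12 at day 28 (132 of 238). Within cluster 8 the sum stood at 1526 and 1950 (ratio 1.28, 1.18 to 1.38) and within cluster 12 at 623.3 and 868.3 (1.39, 1.24 to 1.57). In pDC-like cells it stood at 395.5 and 679.7 (1.72, 1.55 to 1.91), where cluster 7 held 139 of 199 day 0 cells and cluster 11 held 154 of 285 day 28 cells. Within cluster 7 it stood at 275.3 and 326.3 (1.19, 0.972 to 1.45) and within cluster 11 at 549.6 and 852.2 (1.55, 1.36 to 1.77). In T or NK-like cells the sum rose from 120.4 to 331.2 (2.75, 2.31 to 3.26), and there Mcm2 to Mcm7 rose from 128.3 to 314.9 and Mki67 from 8.18 to 75.0 CPM, with cluster 1 holding 546 of 834 day 0 cells and cluster 6 holding 65 of 94 day 28 cells. In cluster 6 (218 and 65 cells) the sum stood at 93.7 and 305.7.

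Counted by member and read only from members with at least 10 UMIs over both libraries in the class, 24 of 55 were at least 2-fold higher at day 28 in monocyte or macrophage-like cells, where 3.39% of the 10361 genes with as many UMIs were, and 3 were at least 2-fold lower, against 5.22%. In early B-like cells 12 of 54 were higher, against 3.71% of genes, and 1, Hist1h2ap, was lower, against 7.31%. In pDC-like cells 26 of 43 were higher, against 5.71%, and 2 lower, against 6.24%. Both of these classes mix clusters held in different shares by the libraries. Within early B-like clusters 8 and 12, 16 of 45 and 18 of 45 were higher, against 238 of 7599 and 478 of 8317 genes. Within pDC-like cluster 11, 15 of 40 were higher, against 541 of 8639 genes. Within cluster 7, 2 of 9 were higher and 2 lower, against 387 and 731 of 7657 genes. In erythroid-like cells 18 of 51 were higher, against 9.32%, and 2 lower, against 3.93%. A member can reach 10 UMIs through the library in which it is high, so these counts describe the members that reached it and not all 65.

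Members were also split by the length of their annotated 3' ends. This split was chosen after the values were seen. Of the 60 members other than Hist1h2ap with a coding transcript, 24 have at least 150 annotated bases after the stop codon, among them Hist1h1c, Hist1h2bc, Hist3h2a and Hist1h4i, and 36 have fewer. In monocyte or macrophage-like cells 14 of 30 short-tail and 8 of 21 long-tail members with 10 UMIs were at least 2-fold higher at day 28, against the 3.39% of all genes given above. The counts were 20 of 22 and 5 of 18 in pDC-like cells (5.71% of genes), 12 of 26 and 5 of 21 in erythroid-like cells (9.32%), 9 of 28 and 3 of 23 in early B-like cells (3.71%), and 5 of 6 and 4 of 11 in T or NK-like cells (10.5%). They were 14 of 29 and 9 of 23 in monocyte progenitor-like cells (4.48%) and 7 of 24 and 5 of 20 in neutrophil progenitor-like cells (5.19%), so the contrast in counts was small in the 3 myeloid classes. Within pDC-like cluster 11 the counts were 11 of 21 and 4 of 16 (541 of 8639 genes). Cluster 7 had no short-tail member with 10 UMIs. Within early B-like cluster 8 they were 11 of 24 and 4 of 18 (238 of 7599 genes), and within cluster 12 11 of 24 and 6 of 18 (478 of 8317). The limit given above holds here too, since a member can reach 10 UMIs through day 28 alone. In day 0 pDC-like cells the short group stood at 67.6 CPM and the long group at 320.3. The filter thus bears more on the short group, and these counts do not measure the contrast between the groups. Over all cells the long group summed to 284.6 and 302.8 CPM (ratio 1.06, 1.03 to 1.10) and the short group to 102.8 and 204.3 (1.99, 1.89 to 2.09). In monocyte or macrophage-like cells the long group stood at 297.4 and 281.9 (0.948, 0.868 to 1.04) and the short group at 127.4 and 209.1 (1.64, 1.45 to 1.86). In erythroid-like cells the long group stood at 552.4 and 461.8 (0.836, 0.757 to 0.924) and the short group at 280.1 and 406.0 (1.45, 1.27 to 1.65). The ratio of the short group was above that of the long group in each of the 7 named classes with at least 50 cells per library and in cluster 3, an unnamed cluster led by Pf4 and Cd34. The groups also differ in sequence: the long group had a median of 0% and the short group, with Hist1h2ap, 67.7% of its 50-base words in common with other transcripts. An AATAAA word, the core of a poly(A) signal, was found in 15 of the 24 long-tail members and in none of the 37 others. The search covered only annotated bases after the stop codon, or after the stem-loop where there was one. Of the 37, 14 have at most 2 annotated bases after the stop codon, so the split by length itself limits this count.

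Single members did not all follow this split. Among the 3 members with the most UMIs of each class, without Hist1h2ap, 10 are long-tail, with ratios over all cells from 0.623 to 2.92 and 4 of them above 1, and 4 are short-tail, with ratios from 1.10 to 2.77. The long-tail members above 1 were Hist1h3e (2.92, 2.18 to 3.97), Hist1h4d (1.76, 1.50 to 2.07), Hist1h1e (1.53, 1.37 to 1.71) and Hist4h4 (1.46, 1.18 to 1.83). All 50-base words of Hist1h3e and Hist1h1e are shared with other transcripts, those of Hist1h4d with none. For Hist1h1e these include Hist1h2be, an H2B gene whose annotated range on the same strand overlaps its 3' end. Among short-tail members, Hist1h1b stood at 25.1 and 27.7 CPM, with an interval that includes 1 (1.10, 0.986 to 1.23). Hist1h4i, an H4 gene, stood at 47.2 and 36.6 CPM over all cells (ratio 0.777, 0.713 to 0.846), at 55.3 and 33.9 in monocyte or macrophage-like cells (0.614, 0.491 to 0.770) and at 131.7 and 69.1 in erythroid-like cells (0.524, 0.416 to 0.661). Hist3h2a stood at 34.5 and 22.8 over all cells (0.662, 0.598 to 0.735). Hist1h2bc stood at 46.2 and 42.3 over all cells (0.914, 0.841 to 0.994). Hist1h1c stood at 46.4 and 45.3 over all cells (0.976, 0.900 to 1.06). Hist1h3c, with 114 annotated bases after the stop codon, stood at 4.96 and 13.8 over all cells (2.77, 2.22 to 3.50) and at 4.54 and 17 in monocyte or macrophage-like cells (3.74, 2.0 to 7.73). Hist1h2bk, with 78 such bases and chosen after its values were seen, stood at 2.16 and 10.4 (4.80, 3.47 to 6.79).

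The level of the family was correlated with that of the proliferation genes across clusters. Over the 20 day 0 clusters with at least 20 cells, the sum of the 64 other members correlated with Mki67 with Pearson's r = 0.78 and Spearman's rho = 0.73, and with Mcm2 to Mcm7 with r = 0.63 and rho = 0.64. Hist1h2ap correlated with Mki67 with r = 0.93 and rho = 0.86 and with Mcm2 to Mcm7 with r = 0.94 and rho = 0.93. Over the 15 day 28 clusters the sum correlated with Mki67 with r = 0.68 and rho = 0.62 and with Mcm2 to Mcm7 with r = 0.48 and rho = 0.65. Hist1h2ap there, at its far lower level, correlated with Mki67 with r = 0.70 and rho = 0.78 and with Mcm2 to Mcm7 with r = 0.61 and rho = 0.80. These values describe clusters of 1 library each, which share its preparation and differ in depth.

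**Figure D2:**
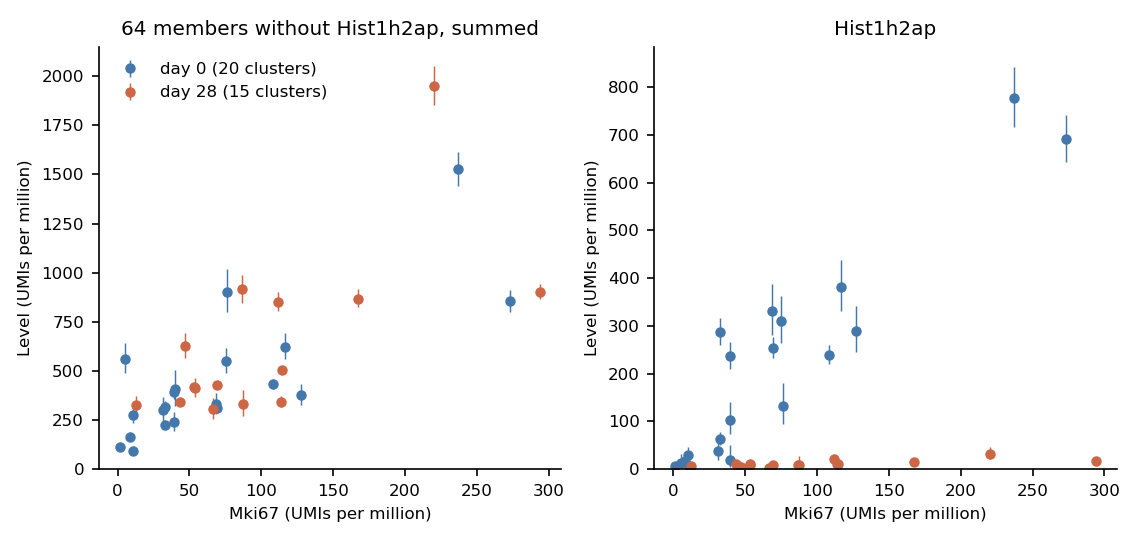
Level of the 64 members without Hist1h2ap, summed (left), and of Hist1h2ap (right) against Mki67, in CPM, for each cluster with at least 20 cells in a library; bars are 95% Poisson intervals. At day 0 both panels climb with Mki67, up to 1526 and 777.4 in early B-like cluster 8, while at day 28 Hist1h2ap stays at or under 31.9 in every cluster shown.

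The highest sums belonged to the early B-like cluster 8, at 1526 and 1950 CPM, and the lowest day 0 sums to the T or NK-like clusters 6 and 1, at 93.7 and 110.8. In cluster 8 the H1 members made up 383.5 and 494.5, the H2B members 458.7 and 634.7, the H4 members 226.7 and 263.8 and the H3 members 82.9 and 155.5 CPM. The erythroid-like cluster 9 had more Mki67 than cluster 8 (273.1 and 294.0 against 237.1 and 220.5) and more Mcm2 to Mcm7 (1562 and 1214 against 1217 and 730.3), yet a lower sum of the 64 members, 854.5 and 902.9. Basophil or mast cell-like cells stood close to erythroid-like cells in that sum, at 902.7 and 915.9, with Mki67 at 76.3 and 86.6. Plasma cell-like cells had sums of 406.0 at day 0 and 627.8 at day 28, with Mki67 at 39.6 and 47.0. Cluster 18, an unnamed day 0 cluster led by Vpreb3 and Ebf1, had a sum of 560.4 with Mki67 at 5.39. The order of clusters by histone level was thus not their order by Mki67 or Mcm.

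A few long-tail members had cell-class patterns of their own. Hist1h1c codes for linker histone H1.2 (chromosome 13, 23738808 to 23740367, plus strand, GRCm38, 1 exon, with 880 annotated bases after the stop codon). At day 0 it stood at 222.8 CPM in plasma cell-like cells, the antibody-secreting end stage (45 UMIs in 17 of 26 cells). Cluster 18 stood at 215.6, basophil or mast cell-like cells at 182.5 and cluster 8 at 143.8. Without the cell holding most Hist1h1c UMIs, the day 0 plasma cell-like value was 194.2, below that of cluster 18. Whether plasma cell-like cells or cluster 18 ranked highest at day 0 thus depended on that cell. At day 28 cluster 8 stood at 235.8, plasma cell-like cells at 235.0 (140 UMIs in 43 of 73 cells) and basophil or mast cell-like cells at 152.7. The medians over clusters were 33.2 and 40.5. In plasma cell-like cells Hist1h1c made up 91.8% and 91.5% of all H1 UMIs, in cluster 18 89.9%, and in erythroid-like cells 24.5% and 18.5%. The other H1 genes with most UMIs ran differently: Hist1h1b (H1.5) had 0 UMIs in plasma cell-like cells at day 28 and stood at 116.6 and 99.4 in cluster 8, and Hist1h1e (H1.4) stood at 79.0 and 85.4 there and at 11.8 in day 28 plasma cell-like cells.

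Hist1h2bc, an H2B gene (chromosome 13, 23684199 to 23692908, plus strand, 2 exons), was highest in basophil or mast cell-like cells at day 0, at 321.9 CPM, and stood at 165.0 there at day 28. The day 0 value came from 97 UMIs in 15 of 33 cells, 30 of them in 1 cell, and was 230.5 without that cell. Cluster 8 stood at 171.0 and 192.4, and the T or NK-like clusters 1 and 6 were lowest at day 0 with 5.19 and 5.45. At day 28 its UMIs there came from 29 of 72 cells, with at most 17 in a cell.

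Hist3h2a, an H2A gene outside the large clusters (chromosome 11, 58954685 to 58956830, plus strand), was spread more evenly. In the pDC-like cluster 7, interferon-producing cells with Mki67 at 10.5 and 12.7, it stood at 94.8 and 92.8 CPM, with 63 UMIs in 51 of 139 cells and at most 3 in a cell at day 0. It made up 88.7% and 86.8% of the H2A UMIs of that cluster without Hist1h2ap, and 9.26% and 7.75% in erythroid-like cells, where it stood at 13.2 and 14.2. In the unnamed day 0 cluster 18 Hist3h2a made up 88.9% of these UMIs (48 of 54), so such a share was not particular to cluster 7. Its neighbour Hist3h2ba, an H2B gene on the same chromosome (58948920 to 58949533), stood at 46.6 and 45.0 in cluster 7, at 139.9 and 160.6 in cluster 8 and at 74.6 and 48.7 in erythroid-like cells, but at 1.95 and 1.82 in monocyte progenitor-like cells. Both genes were thus high in cluster 8 and present in cluster 7; for Hist3h2ba erythroid-like cells ranked above cluster 7, and for Hist3h2a below it.

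**Figure D3:**
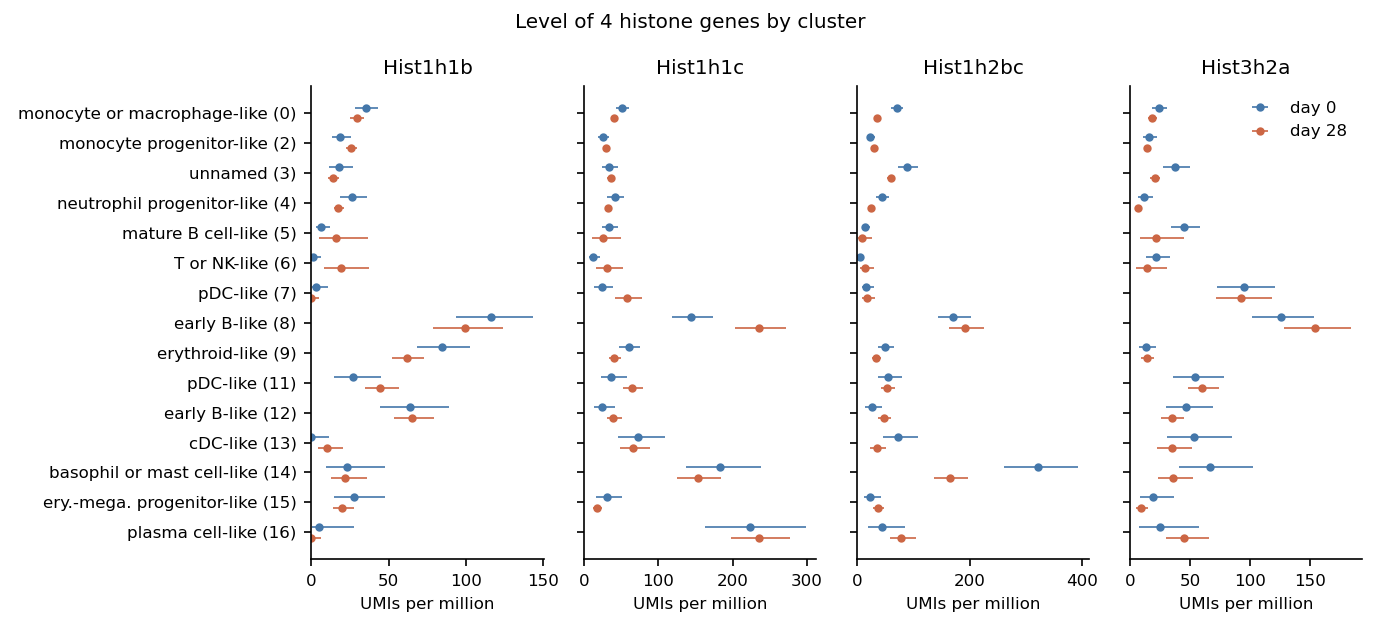
Level of Hist1h1b, Hist1h1c, Hist1h2bc and Hist3h2a in CPM (x axes) in the 15 clusters with at least 20 cells in each library (cluster number in brackets; pDC, plasmacytoid dendritic cell; cDC, conventional dendritic cell; ery.-mega., erythroid-megakaryocyte). Bars are 95% Poisson intervals. Hist1h1b is highest in early B-like and erythroid-like clusters, Hist1h1c in plasma cell-like, early B-like and basophil or mast cell-like clusters, Hist1h2bc in the last of these and cluster 8, and Hist3h2a in clusters 8 and 7.

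The next comparison was between cells with and without a Mki67 UMI. Each cell was first thinned at random to 3200 UMIs, so that depth did not set who was positive; this left out 225 day 0 cells and none at day 28. By that measure 279 of 2384 day 0 cells (11.7%) and 553 of 2580 day 28 cells (21.4%) were positive, against 21.3% and 53.1% without thinning, and 197 and 422 of the positive cells held exactly 1 Mki67 UMI. Among thinned T or NK-like cells 14 were positive and 671 negative at day 0. The 64 members summed to 1029 CPM in positive and 283.4 in negative cells at day 0 (ratio 3.63, 3.35 to 3.93), and to 959.0 and 478.4 at day 28 (2.0, 1.89 to 2.13). By class the day 0 ratios were 3.57 for H1, 3.21 for H2B, 4.39 for H3, 4.2 for H4 and 5.09 for H2A with Hist1h2ap. At day 28 they lay between 1.89 for H2B and 2.11 for H3. Mcm2 to Mcm7 had ratios of 2.67 and 1.24 and Top2a, a topoisomerase of dividing cells, 6.61 and 2.42, so the histone ratios lay between those of the helicase and of Top2a in each library.

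Of the members with at least 10 thinned UMIs, 34 of 43 at day 0 were at least 2-fold higher in Mki67-positive cells, where 10.7% of all 11368 genes were, and 0 were at least 2-fold lower, against 11.2%. At day 28, 34 of 55 were higher, against 4.83% of 11259 genes, and 0 lower, against 6.97%. The median ratio of these members was 4.37 and 2.19, and of all genes 1.07 and 1.01. A member can reach 10 UMIs through the cells in which it is high, so these values describe only the members that reached it. With at least 30 thinned UMIs, 14 of 20 members were higher at day 0, against 881 of 9412 genes. At day 28, 25 of 43 were, against 332 of 9408 genes. The members' median ratios were then 3.38 and 2.07.

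Among members with at least 30 thinned UMIs over both libraries (47), the 5 highest over both libraries were Hist1h4f, Hist1h2an, Hist1h2ab, Hist1h1a and Hist1h3g. Hist1h1a, the linker histone H1.1, stood at 24.6 CPM in positive and 3.12 in negative cells at day 0 (ratio 7.90, 4.15 to 15.1) and at 26.6 and 8.79 at day 28 (3.02, 2.01 to 4.53). Hist1h3g stood at 13.4 and 0.891 at day 0 (15.1, 5.24 to 49.0), from 12 and 6 UMIs, and at 7.35 and 3.55 at day 28 (2.07, 0.964 to 4.26). The 5 lowest were Hist2h4, Hist1h4h, Hist3h2a, Hist1h1c and Hist1h2be. Hist3h2a stood at 50.4 in positive and 38.6 in negative cells at day 0 (1.31, 0.93 to 1.80) and at 47.5 and 27.1 at day 28 (1.75, 1.33 to 2.28). Hist1h1c stood at 85.1 and 44.7 at day 0 (1.90, 1.46 to 2.46) and at 86.5 and 52.1 at day 28 (1.66, 1.36 to 2.01). Hist1h1b, with the same kind of protein, stood at 81.8 and 11.3 at day 0 (7.25, 5.18 to 10.1) and at 54.8 and 21.7 at day 28 (2.52, 1.93 to 3.29). The intervals of Hist1h1b and Hist1h1c did not overlap at day 0 and overlapped by little at day 28. Hist2h4 lay on opposite sides of 1 in the 2 libraries, at 0.920 (0.284 to 2.33) and 1.83 (0.892 to 3.6), and both intervals include 1.

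Hist1h2ap at day 0 stood at 585.8 CPM in Mki67-positive and 95.7 in negative cells (6.12, 5.44 to 6.88). At day 28 it stood at 11.9 and 9.71, from 21 and 63 UMIs (1.22, 0.708 to 2.03), a difference that was not detectable at this depth. Hist1h2ae, an H2A gene encoding the same protein, stood at 72.8 and 7.13 at day 0 (10.2, 6.93 to 15.2) and at 31.1 and 14.2 at day 28 (2.19, 1.54 to 3.09).

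**Figure D4:**
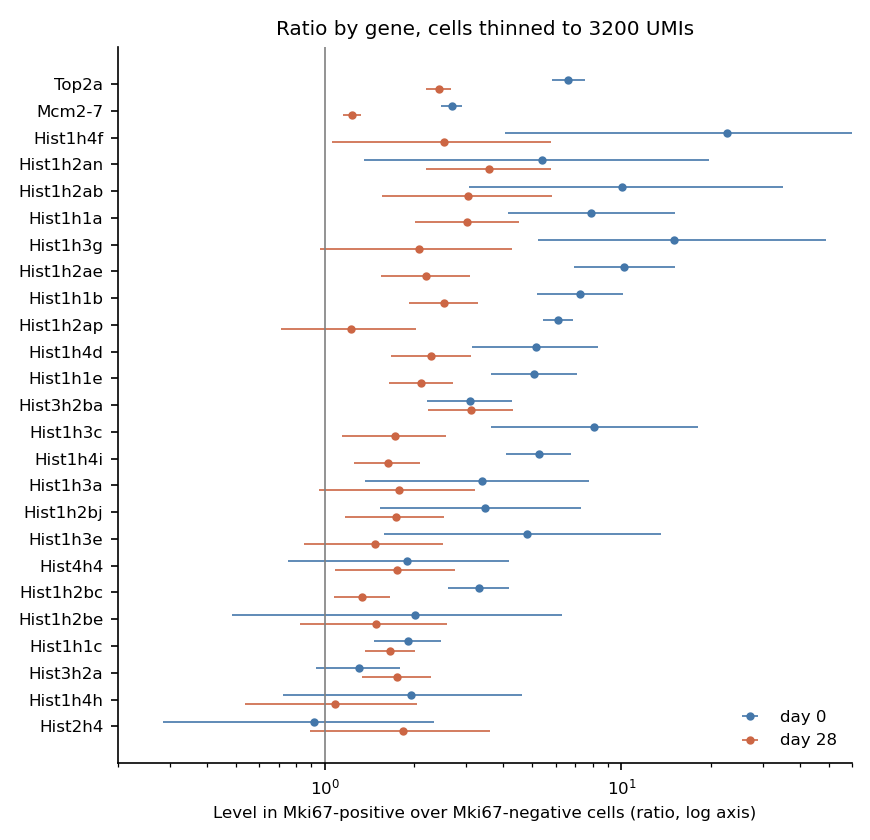
Ratio of the level in Mki67-positive over Mki67-negative cells (x axis, log scale) for the 23 named members, Mcm2 to Mcm7 and Top2a, in cells thinned to 3200 UMIs; points are the 2 libraries and bars 95% conditional binomial intervals, clipped at the axis. Members are ordered by their ratio over both libraries, from Hist2h4 (1.37) to Hist1h4f (4.69); apart from Hist2h4, Hist3h2a and Hist3h2ba, the day 0 point lies to the right of the day 28 point.

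The Mki67-negative cells at day 0 were also made up of those 671 T or NK-like cells, with a low histone level, so the ratio was also taken inside classes. In monocyte or macrophage-like cells the 64 members stood at 608.3 CPM in the 56 Mki67-positive cells and 333.2 in the 166 negative cells at day 0 (ratio 1.83, 1.42 to 2.33), and at 610.8 and 409.4 at day 28 (1.49, 1.26 to 1.76). In early B-like cells the ratios were 1.45 (1.25 to 1.68) and 1.49 (1.32 to 1.67). In erythroid-like cells they were 1.34 (1.06 to 1.69) and 1.11 (0.919 to 1.35). In pDC-like cells they were 2.27 (1.44 to 3.42), from 11 positive cells, and 1.88 (1.55 to 2.28). In each of these 4 classes the intervals of the 2 libraries overlapped, unlike those over all cells. The pDC-like and early B-like classes each join 2 clusters, so their ratios still carry a mixture. Cluster 7 had sums of 275.3 and 326.3 CPM with Mki67 at 10.5 and 12.7, and cluster 11 549.6 and 852.2 with Mki67 at 75.2 and 111.9. Cluster 8 had sums of 1526 and 1950 with Mki67 at 237.1 and 220.5, and cluster 12 623.3 and 868.3 with Mki67 at 116.4 and 167.3.

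Sorting the same thinned cells by both markers, with a cut of 2 UMIs summed over Mcm2 to Mcm7 and of 1 Mki67 UMI, gave 1614 and 1204 cells with neither, 491 and 823 with Mcm only, 175 and 270 with both and 104 and 283 with Mki67 only. At the cut, 442 and 652 cells held exactly 1 Mcm UMI and 193 and 441 exactly 2. Over all cells the 64 members stood at 231.8 and 469.0 CPM with neither, 453.2 and 492.1 with Mcm only, 1068 and 885.4 with both, and 964.5 and 1029 with Mki67 only. Inside monocyte or macrophage-like cells the Mcm-only cells (319.8 and 402.6) were no higher than cells with neither (347.7 and 416.1). Cells there with both markers stood at 803.6 (628.7 to 1012) and 608.0 (498.2 to 734.7), and cells with Mki67 only at 412.9 (290.8 to 569.2) and 613.6 (503.4 to 740.9). In early B-like cells the highest level was in cells with Mki67 only, at 1932 (1621 to 2285) and 2126 (1918 to 2351), against 1009 and 1238 with Mcm only. These values too mix the clusters joined in the class. Hist1h1b over all cells rose at day 0 from 5.81 with neither to 29.3 with Mcm only, 76.8 with both and 90.1 with Mki67 only. Hist1h1c stood at 43.0, 50.3, 87.5 and 81.1 in the same order, and Hist3h2a at 41.1, 30.6, 48.2 and 54.1.

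**Figure D5:**
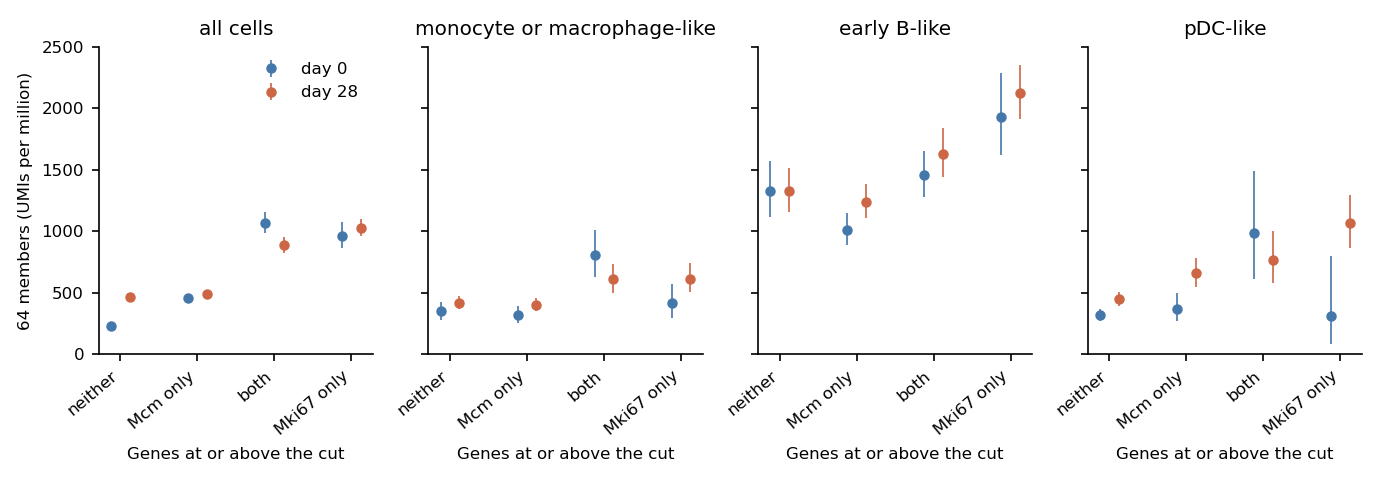
Summed level of the 64 members without Hist1h2ap, in CPM, by whether thinned cells reached 2 UMIs of Mcm2 to Mcm7, 1 UMI of Mki67, both or neither, in all cells and in 3 classes; bars are 95% Poisson intervals. Over all cells the Mki67 groups stand at 885.4 to 1068 and the neither groups at 231.8 and 469.0, and within each class the Mcm-only group lies close to or below the neither group except in pDC-like cells at day 28. The early B-like and pDC-like classes each join clusters of different histone level.

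The other genes of histone supply were read from lists, by the same Mki67 ratio and with members of at least 10 thinned UMIs. Their counts stand against the 10.7% of all genes at least 2-fold higher at day 0 and the 4.83% at day 28. Of 14 histone mRNA processing genes, 3 were at least 2-fold higher at day 0 and 0 at day 28, with medians of 1.61 and 1.24. Slbp, whose product binds the stem-loops printed above, was the highest at day 0, at 477.2 and 145.9 CPM (3.27, 2.91 to 3.67), and stood at 237.3 and 160.3 at day 28 (1.48, 1.32 to 1.66). Npat, a coactivator of histone genes at their loci, stood at 11.2 and 4.60 at day 0 (2.43, 1.06 to 5.09) and had the highest ratio at day 28 (1.72, 1.0 to 2.88). The lowest were Snrpd3 (1.14) and Cpsf3 (1.18) at day 0 and Coil (0.524) and Lsm10 (0.882) at day 28, where Cpsf2 (1.60) was second highest.

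Of 10 replacement histone genes, many of whose transcripts are polyadenylated and also made outside S phase, 7 and 2 were at least 2-fold higher in Mki67-positive cells, with medians of 2.90 and 1.43. H2afx stood at 891.6 and 169.2 CPM at day 0 (5.27, 4.81 to 5.77) and had a ratio of 2.22 at day 28. Cenpa, the centromeric H3, had ratios of 3.80 and 2.14, and H2afj (1.23 and 0.990) and H2afy (1.29 and 0.992) were lowest in both libraries. Of 19 histone chaperone genes, 7 and 0 were higher, 0 and 1 lower, with medians of 1.87 and 1.17. The highest were Asf1b (5.56) and Chaf1a (3.15) at day 0 and Asf1b (1.99) and Supt16 (1.54) at day 28, and the lowest Ipo4 (0.549) and Tonsl (0.752), then Ipo4 (0.450) and Npm1 (0.899).

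The 6 Mcm genes were all at least 2-fold higher at day 0, from Mcm2 (2.30) and Mcm6 (2.42) to Mcm4 (2.71) and Mcm7 (3.37), and 0 were at day 28, from Mcm4 (1.15) and Mcm3 (1.16) to Mcm2 (1.31) and Mcm5 (1.38). Of 21 other S phase genes, 20 and 2 were higher, with medians of 3.65 and 1.50. Rrm2, which makes DNA precursors, was highest at day 0 (5.86), before Ccne2 (5.06), and Ccne1 (2.29) and Rrm2 (2.13) were highest at day 28, while Ung (0.743 and 0.694) was lowest in both, followed by Cdc45 (2.1) and Rpa2 (0.982). Of 24 G2 and M phase genes other than Mki67, 24 and 21 were higher, with medians of 6.37 and 2.46. The highest were Kif11 (8.28) and Aurka (7.45) at day 0 and Cenpf (3.55) and Kif11 (3.03) at day 28, and the lowest Cks2 (3.71) and Tubb4b (4.06), then Bub1 (1.44) and Cks2 (1.79). The members' medians of 4.37 and 2.19 thus lay between those of the other S phase genes and of the G2 and M phase genes. At day 0 this place depended on the UMI minimum. With at least 30 thinned UMIs the members' day 0 median was 3.38, below the 3.65 of the other S phase genes. Their day 28 median was then 2.07 and still lay between the 2 lists. The medians of the lists were not taken at that minimum.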

How the data were processed

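Droplet RNA sequencing measured polyA RNA of sorted cells in 1 library at day 0 and 1 at day 28. The deposited matrices hold unnormalized counts of UMIs for each gene in each barcode, which the authors made with Cell Ranger 2.1.1 and STAR (version not given in the sources used here) on mm10, per the submitters' processing notes. A 3' v1 kit is named in the labels, yet barcodes are 16 bases long, and the design text gives 5000 captured cells, against 2668 and 2653 barcodes in the files. Total counts were 19574562 and 38785525.

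Cells needed at least 500 genes and at most 10% mitochondrial UMIs, which left out 2 and 17. Scrublet marked 0.15% and 0.303% as doublets, so the top-scoring 0.8% for every 1000 barcodes were left out instead (57 and 56). Cells were clustered with scanpy 1.11.5 and leidenalg 0.10.2 (2000 variable genes, 30 principal components, 20 neighbours, resolution 0.8) without the histone and cell-cycle genes. Clusters were named from marker lists by a rule set after seeing the data. Levels are summed counts scaled to CPM in Python 3.11.15 with numpy 2.4.6 and scipy 1.17.1, with 95% exact Poisson, Clopper-Pearson or conditional binomial intervals that cover counting error only. With 1 library a group no test was possible, and values past 2-fold were counted instead. Cells were thinned to 3200 UMIs for the Mki67 and Mcm comparisons.

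Sequences came from GENCODE M21 and RefSeq tables, which held 63 and 56 of the 65 members. Single members were named when among the 3 with most UMIs of their class, or among the 5 highest and 5 lowest by Mki67 ratio with at least 30 thinned UMIs, or on opposite sides of 1 in the 2 libraries. Listed genes were named when among the 2 highest or lowest of their list. The members and lists were chosen with earlier results of these data known. The computation was tested on simulated counts. Alternatives were another clustering resolution, doublets kept, all variable genes, mean per-cell CPM, thinning or none, and other minimums for Mki67, Mcm and member UMIs.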

Additional observations from a re-analysis of the deposited data

Results flagged for a closer look

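Hist2h4, an H4 gene, had a Mki67-positive over Mki67-negative ratio of 0.920 at day 0 (0.284 to 2.33) and 1.83 at day 28 (0.892 to 3.6), on opposite sides of 1. Both intervals include 1, and the difference between the libraries was not tested.

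The sum of all 65 members, with Hist1h2ap, moved in opposite directions among classes from day 0 to day 28. It was higher at day 28 in pDC-like cells (1.27) and T or NK-like cells (2.45). It was lower in monocyte or macrophage-like cells (0.768), monocyte progenitor-like cells (0.779), neutrophil progenitor-like cells (0.583), early B-like cells (0.704) and erythroid-like cells (0.595). Without Hist1h2ap these 7 ratios lay between 1.06 and 2.75. The intervals of the erythroid-like (0.978 to 1.14), early B-like (0.996 to 1.13) and neutrophil progenitor-like (0.973 to 1.20) ratios include 1, and with doublets kept the erythroid-like ratio was 0.961. The difference between classes was not tested, since each class has 1 library a group.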

How the results depend on the processing

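Of 70 alternative values over 22 results, 57 kept their direction and size within the counting interval or the 1.5-fold range for counts, 12 moved further and 1 changed direction. Taking the mean of per-cell CPM moved the day 28 over day 0 ratio of Hist1h2ap from 0.0501 to 0.0746, that of the 64 other members from 1.32 to 1.60 and their early B-like ratio from 1.06 to 1.15. Thinned cells gave 0.0665 and 1.57 for the first 2. Without thinning, the Mki67-positive over Mki67-negative ratio of the other members was 2.58 at day 0 (3.63 with it) and 1.68 at day 28 (2.0), and at least 2 Mki67 UMIs gave 2.68 at day 28. At resolution 0.4 the pDC-like ratio was 0.187 for Hist1h2ap (0.109 at 0.8) and 1.185 for the others (1.72 at 0.8), and no monocyte or macrophage-like class had 50 cells in each library, so that value was not run. With doublets kept, the others stood at 1.525 in pDC-like cells and 0.961 in erythroid-like cells (1.06 without them), the only change of direction. Hist1h2bc in day 0 basophil or mast cell-like cells fell from 321.9 to 230.5 CPM without the cell holding most of its UMIs (this alternative was added with the data seen). The causes were not tested beyond the construction of each alternative. No paired analysis was possible because each group has 1 library. Depth limits members with few UMIs most: Hist1h2ao had 7 UMIs at day 0.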

Other observations

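Across the 8 classes, Gm10709 had day 28 over day 0 ratios between 0.00778 and 0.0177, Gstp1 between 0.0133 and 0.0467, Gm10076 between 0.0987 and 0.123 and Gm10020 between 0.0992 and 0.177. Among genes at 100 CPM or more, Hist1h2ap had the second lowest ratio in monocyte or macrophage-like and early B-like cells, after Gm10709. AY036118 and Gm42418, rows known to collect reads of ribosomal RNA, went the other way in all 8 classes, with ratios between 5.32 and 13 and between 3.41 and 4.99. Of the 5807 genes, 3 were at least 3-fold higher at day 28 in every class, these 2 and Cks1brt. All these genes were chosen after their values were seen, and whether they share a cause with Hist1h2ap was not tested.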
